A study of Mus musculus with 6 samples.

Results

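The genes described here encode proteins of the mitochondrial respiratory chain and ATP synthase, together with a few proteins that share their name stems. They were taken from the array's probe annotation by symbol: every gene whose symbol begins with Nduf, Uqcr, Cox4, Cox5, Cox6, Cox7, Cox8 or Atp5, plus Sdha, Sdhb, Sdhc and Sdhd, where it is the only symbol of its probe set. The rule found 89 of the 19938 genes measured: 34 subunits of complex I, 4 of complex II, 8 of complex III, 18 genes of complex IV, 17 of ATP synthase (complex V), 7 assembly factors of complex I, and the related protein Ndufa4l2. Ndufa4 was placed in complex IV and Cox7a2l, a factor that joins complexes into supercomplexes, was counted with it. For the 17 genes with more than 1 probe set the one with the highest mean over the 6 arrays was kept. A further 6 probe sets were left out because each lists several symbols, so that Cox7c and Ndufb4, for example, have no value here.

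RNA was measured on 6 whole-transcript arrays of sorted mouse marrow cells, with 2 arrays in each of 3 groups. Donors were wild-type C57BL/6 mice treated with 5-fluorouracil, mice were 8 weeks old, and the infected marrow was transplanted into C57BL/6 recipients. All groups received a retrovirus with the GFP reporter: alone in the vector group, with the fusion oncogene BCR-ABL in the BCR-ABL group, and with BCR-ABL and the Src family kinase Blk in the BCR-ABL-Blk group. At 14 days the GFP-positive cells that lacked lineage markers and carried c-Kit and Sca-1 were sorted. The labels call the sorted cells of the vector group hematopoietic stem cells and those of the other groups leukemic stem cells, but the gate also holds multipotent progenitors. The labels call the replicates biological without saying how many mice each one holds, so p-values measure the spread between these samples. In such bulk samples fewer cells of a type and less RNA per cell cannot be told apart.

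Complexes I and II take electrons from NADH and succinate and pass them to ubiquinone; complex III passes them on to cytochrome c, and complex IV hands them to oxygen. Complexes I, III and IV pump protons across the inner mitochondrial membrane, and ATP synthase uses the return flow to make ATP. Quiescent blood stem cells are known to lean on glycolysis, and their entry into cycle and differentiation to draw more on respiration.

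The genes are nuclear, lie on many chromosomes, and are known to share promoter elements for the factors NRF1, GABP (an ETS factor) and YY1. Promoter sequence from RefSeq (build GRCm38.p6), running from 250 bases before to 50 bases after the annotated start, was held for 73 of the 89 genes. The NRF1 core, which reads GCGC, then A, then any base, then GCGC, was found on either strand in 18 of the 73 (24.7%), against 5.19% of the 27025 genes of the table and 7.85% of the 15614 of them with a value on the arrays. The ETS motif CCGGAAG was also found in 24.7%, against 13.6% of the genes on the arrays, and the YY1 motif AANATGGC in 24.7% against 7.70%. The CCAAT box CCAAT was found in 43.8%, against 41.7% of the genes on the arrays. These promoters were rich in G and C, with a median of 58.3% against 57.5% over the genes on the arrays, and the medians of the CpG count were 19 and 15. The NRF1 core was in 6 of 31 genes of complex I, 2 of 3 of complex II and 1 of 5 of complex III. For complex IV it was in 1 of 13 (7.69%), for complex V in 6 of 15 and for the assembly factors in 2 of 6. To show the element, 1 gene of each complex and 1 assembly factor are printed. The NRF1 match nearest to the start site is given for each, in a window of 30 bases. Each is written on the gene's own strand with the motif in capitals; the element can lie on either strand, so that its A appears as T where it is read from the other one.
Ndufs6, complex I, chr13:73328479-73328508, minus strand: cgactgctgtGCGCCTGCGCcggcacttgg
Sdha, complex II, chr13:74350231-74350260, minus strand: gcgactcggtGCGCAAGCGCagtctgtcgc
Uqcrc1, complex III, chr9:108936643-108936672, plus strand: cttccttacaGCGCTTGCGCctcagactcc
Cox6a1, complex IV, chr5:115349056-115349085, minus strand: cggataaagtGCGCAGGCGCtggagttcct
Atp5o, complex V, chr16:91931602-91931631, minus strand: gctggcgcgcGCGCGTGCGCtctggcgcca
Ndufaf5, complex I assembly, chr2:140170652-140170681, plus strand: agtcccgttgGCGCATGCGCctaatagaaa
The 18 genes with the NRF1 core had a median log2 difference of -0.06 in BCR-ABL-Blk against BCR-ABL, and the 55 without it -0.07. Between BCR-ABL and vector the same medians were -0.05 and 0.02. A match is a run of letters, not a measured binding site.

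All levels below are log2 values after quantile normalization between arrays, and differences are between group means on that scale, with the standard error (SE) of limma's fit. The deposited medians of the 6 arrays ran from 7.01 to 7.52. Without the normalization the median over all genes was -0.11 for BCR-ABL minus vector, 0.26 for BCR-ABL-Blk minus BCR-ABL and 0.15 for BCR-ABL-Blk minus vector. Small differences are read against the median of all genes for this reason. The probe set of Blk read 7.14 and 6.95 in vector, 6.54 and 6.60 in BCR-ABL, and 6.95 and 7.01 in BCR-ABL-Blk cells. Blk was thus 0.41 higher with the added kinase than in BCR-ABL cells (adjusted p = 0.999) and was not above the vector arrays. All of these readings lay below the median level of the named genes. Whether the probe set can detect the Blk transcript of the retrovirus is not known. The readings therefore cannot show whether Blk was overexpressed. Kit, one of the markers of the gate, read between 10.3 and 10.9 on all 6 arrays.

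No respiratory chain gene passed the test in any of the 3 comparisons. Between BCR-ABL and vector 0 of 89 passed an adjusted p of 0.05 in limma, where 29 of all genes (0.145%) did, 24 higher (0.12%) and 5 lower (0.0251%). At an unadjusted p under 0.05, 4 of the 89 were higher (5.67% of all genes were) and 5 lower (2.96% of all genes). The median difference of the 89 was 0.01 with 47 above 0 and 42 below, and the median over all genes was 0.02. With each array centred on its median, 75 were above 0 and 12 below, with a median of 0.14 against 0.035 over all genes. The middle 50% of the genes lay between -0.08 and 0.07. For 78 of the 89 the 95% interval of the difference lay within 0.5 of 0 on the log2 scale, so that a larger change of those genes is outside the interval, and a smaller one is not. The median SE was 0.084 over the 89 genes and 0.129 over all genes. Arrays did not overlap, with BCR-ABL higher, in 17 genes (19.1%, against 22.1% of all genes) and, with BCR-ABL lower, in 23 (25.8%, against 14.9%). These counts depended on the scaling: with arrays centred they were 8 (19.3% of all genes) and 3 (11.9% of all genes), and without normalization 14 (10%) and 21 (14.9%).

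With Blk added to BCR-ABL most of these genes read lower after quantile normalization, slightly so, and with arrays centred on their medians. With no scaling between arrays most read higher, as did most of all genes. After quantile normalization the amounts gene by gene were near those between replicates, which had a median size of 0.07 without Blk and 0.06 with it. The array medians over the 89 genes spread less, with a pooled standard deviation of 0.028 over the 3 groups. The median difference was -0.07, against -0.01 over all genes, with 71 of the 89 below 0. In this comparison 0 of 89 genes passed in limma, and 0 of all genes did (0.0%). At an unadjusted p under 0.05, 8 of the 89 were lower (2.49% of all genes) and 0 higher (1.47%). The arrays of the groups did not overlap, with BCR-ABL-Blk lower, in 40 of the 89 (44.9%, against 20.0% of all genes). The reverse held for 4 (4.49%, against 14.0%). Without normalization 0 were lower (0.717% of all genes) and 35 higher (57.9%), and with arrays centred 46 were lower (23.3%) and 1 higher (9.16%). The sign depended on the scaling: without normalization only 12 of the 89 were below 0, while 84 were below the median of all genes there, and 85 were below 0 with each array centred on its median. Relative to all genes the median of the 89 lay between -0.16 and -0.02 over 13 settings, and was nearest to 0 without BCR-ABL replicate 2.

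Against vector, BCR-ABL-Blk cells gave a median of -0.06 over the 89 genes and 0.00 over all genes, with 58 below 0. Here 0 of 89 passed in limma, against 28 of all genes (0.14%), 19 of them higher (0.0953%) and 9 lower (0.0451%). At an unadjusted p under 0.05, 18 were lower (4.11% of all genes) and 2 higher (5.31%). Arrays did not overlap, with BCR-ABL-Blk lower, in 38 genes (42.7%, against 17.5% of all genes), and with BCR-ABL-Blk higher in 11 (12.4%, against 19.7%). With arrays centred, 14 were lower (17.6% of all genes) and 4 higher (15%). Without normalization 8 were lower (2.5%) and 29 higher (26.8%), and 26 of the 89 rather than 58 were below 0. This comparison shares arrays with both others. The difference between vector replicates was as large as that between groups: vector replicate 2 lay below replicate 1 by a median of 0.08 over the 89 genes, with 66 of them lower. Between the replicates of BCR-ABL and of BCR-ABL-Blk the median was 0.00 each. Over all genes the median difference of vector replicate 2 from replicate 1 was -0.01.

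**Figure D1:**
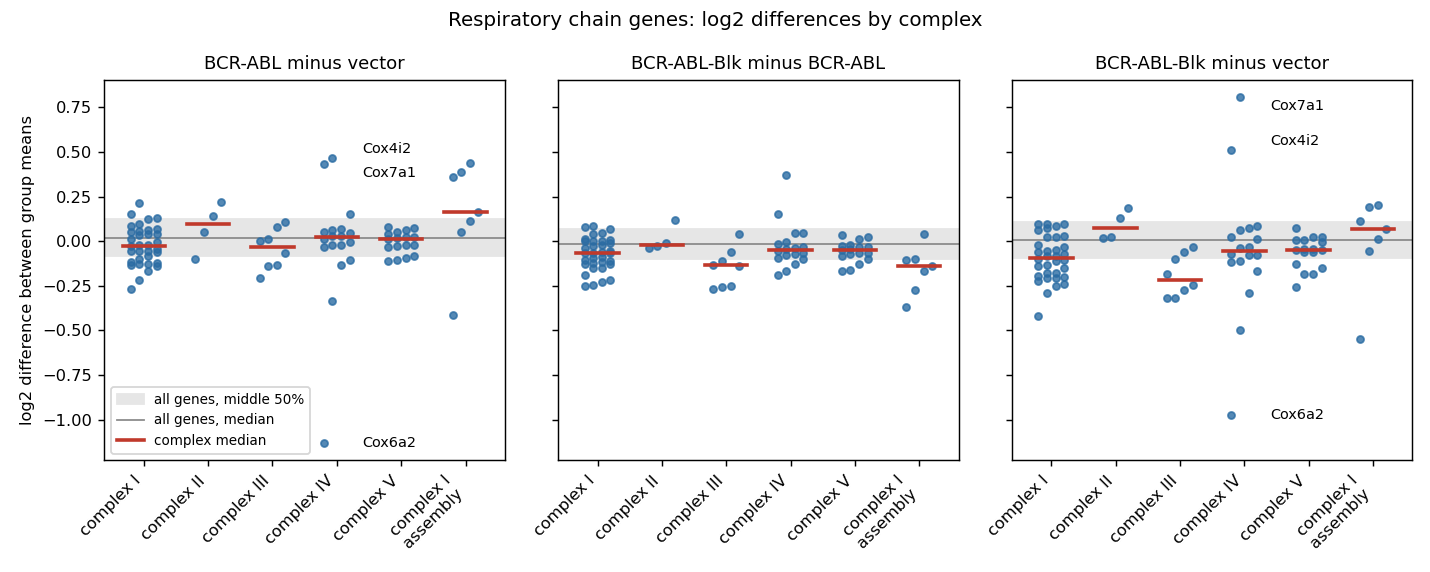
Log2 difference between group means (y axis) of each respiratory chain gene (points) by complex, in the 3 comparisons, with the median of each complex (red line) and the middle 50% and median of all 19938 genes (grey). Most points lie within the grey band or just below it; the widest are the complex IV genes Cox6a2 at -1.13 and -0.98 against vector and Cox7a1 at 0.81. Without normalization between arrays all genes shift by -0.11, 0.26 and 0.15 in the 3 panels.

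**Figure D2:**
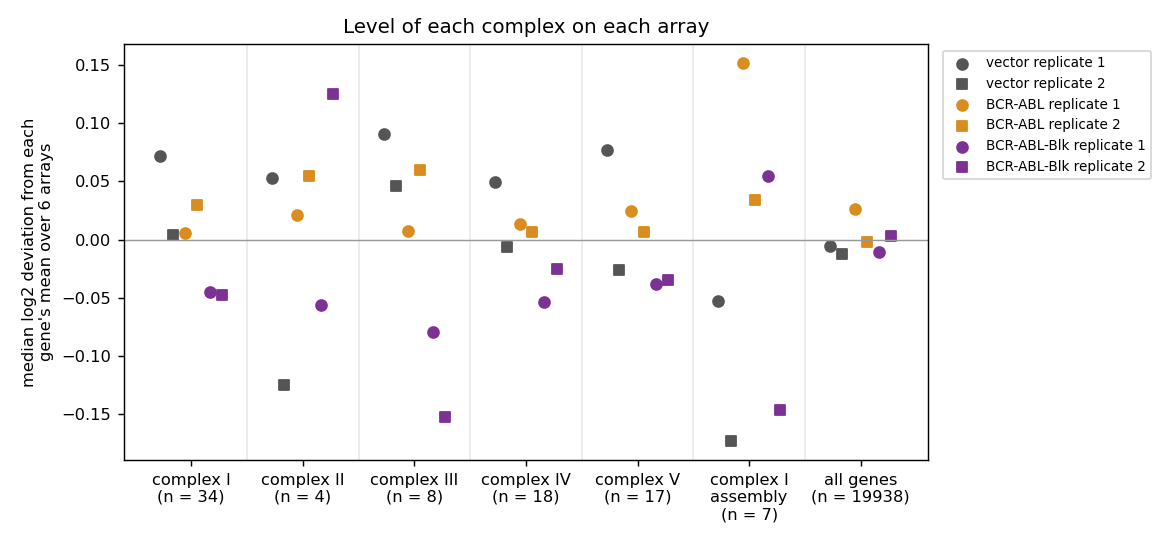
Median log2 deviation of the genes of each complex from their own mean over 6 arrays (y axis), for each of the 6 arrays, with all genes at the right. Both BCR-ABL-Blk arrays lie below 0 for complexes I, III, IV and V, lowest for complex III at -0.08 and -0.15, while for complex II the arrays of that group stand at -0.06 and 0.13; without normalization the medians of BCR-ABL-Blk minus BCR-ABL turn positive, except relative to all genes.

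Complex I is the largest of the complexes and holds a core of catalytic subunits surrounded by accessory ones. Its 34 genes had median differences of -0.03 for BCR-ABL against vector, -0.07 for BCR-ABL-Blk against BCR-ABL and -0.09 for BCR-ABL-Blk against vector. In the last, 25 of 34 were below 0, and the 4 genes with an unadjusted p under 0.05 were all lower (4.11% of all genes) and accessory. The 6 core genes measured (Ndufv1, Ndufv2, Ndufs1, Ndufs3, Ndufs7 and Ndufs8) had medians of 0.05, -0.02 and -0.01 in the 3 comparisons. For the 28 accessory genes the medians were -0.04, -0.07 and -0.11. Relative to all genes the complex I median stood at -0.05 for BCR-ABL-Blk against BCR-ABL and at -0.18 without normalization, and at -0.10 and -0.08 for BCR-ABL-Blk against vector. For BCR-ABL against vector it was -0.04 and turned to 0.07 without normalization.

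Ndufa3, an accessory subunit, had the largest difference of the complex. It read 10.74 and 10.65 in vector, 10.57 and 10.48 in BCR-ABL, and 10.29 and 10.26 in BCR-ABL-Blk cells. The 3 groups did not overlap and stood in that order. The difference from vector was -0.42 with an SE of 0.10 for BCR-ABL-Blk (adjusted p = 0.212) and -0.17 for BCR-ABL (adjusted p = 0.71), and between BCR-ABL-Blk and BCR-ABL it was -0.25 (adjusted p = 0.999).

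Ndufv3, an accessory subunit of the NADH-oxidizing module, differed between BCR-ABL-Blk and the other groups. Its levels were 10.62 and 10.59 in vector, 10.61 and 10.68 in BCR-ABL and 10.40 and 10.39 in BCR-ABL-Blk cells, with a difference of -0.25 (SE 0.10) from BCR-ABL and of -0.21 from vector (adjusted p = 0.999 and 0.578). Ndufa1, needed for the membrane arm, was at 12.45 and 12.46, 12.34 and 12.39, and 12.29 and 12.31 in the same order of groups. The groups of Ndufa1 did not overlap although they spanned only 0.15 between vector and BCR-ABL-Blk (adjusted p = 0.308).

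Ndufb7, a subunit of the membrane arm, was lowest in BCR-ABL cells only without centring. With arrays centred on their medians it was lowest in BCR-ABL-Blk cells, at -0.10 from BCR-ABL and -0.22 from vector. After quantile normalization it read 11.95 and 12.20 in vector, 11.79 and 11.82 in BCR-ABL, and 11.86 and 11.89 in BCR-ABL-Blk cells. The difference for BCR-ABL was -0.27 (SE 0.09, adjusted p = 0.398). The result rested on vector replicate 2: without vector replicate 1 the adjusted p was 0.0249 for BCR-ABL, at -0.40, and 0.0418 for BCR-ABL-Blk, at -0.33. Ndufa5 stood 0.13 below vector in BCR-ABL and 0.19 below in BCR-ABL-Blk cells, without overlap (adjusted p = 0.646 and 0.374).

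Of the 34 complex I genes, 14 were above vector in BCR-ABL cells, and 27 were with arrays centred on their medians. Ndufs1, the largest core subunit, read 10.80 and 10.56 in vector, 10.92 and 10.87 in BCR-ABL and 10.73 and 10.68 in BCR-ABL-Blk cells. BCR-ABL arrays were above all others, by 0.21 against vector (SE 0.11, adjusted p = 0.645) and by 0.19 against BCR-ABL-Blk (adjusted p = 0.999). Ndufa10 was 0.15 above vector in BCR-ABL cells (adjusted p = 0.617), and Ndufs4, an accessory subunit whose loss in mice is known to cause a Leigh-like disease, 0.12 above (adjusted p = 0.725). Ndufa9 and Ndufs4 were each 0.10 above vector in BCR-ABL-Blk cells, with adjusted p of 0.742 and 0.796, and Ndufa8 was 0.08 above BCR-ABL there (adjusted p = 0.999). None of these differences reached an unadjusted p of 0.05.

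Complex II, succinate dehydrogenase, is also an enzyme of the citric acid cycle and passes electrons on without pumping protons. Sdha, the flavin-binding catalytic subunit, read 11.71 and 11.58 in vector, 11.77 and 11.81 in BCR-ABL, and 11.74 and 11.81 in BCR-ABL-Blk cells. Both BCR-ABL groups were above the vector arrays, by 0.14 and 0.13 (SE 0.07, adjusted p = 0.639 and 0.646). Sdhb, which holds the iron-sulfur centres, was at 11.28 and 11.17, 11.13 and 11.12, and 11.11 and 11.38; its BCR-ABL arrays were lowest but for 1 BCR-ABL-Blk array, 0.10 below vector (adjusted p = 0.853). The membrane anchors overlapped more. Sdhc ranged from 11.49 to 11.64 over the 6 arrays, with differences from vector of 0.05 and 0.02. Sdhd read 9.11 and 8.73 in vector, 9.16 and 9.13 in BCR-ABL, and 8.86 and 9.35 in BCR-ABL-Blk cells, so that its replicates spanned more than its groups. Over the 4 genes the median was 0.09 for BCR-ABL and 0.07 for BCR-ABL-Blk against vector. All 4 genes were lower in vector replicate 2 than in replicate 1, by a median of 0.14, and all 4 were higher in BCR-ABL-Blk replicate 2 than in replicate 1, by a median of 0.16. Without BCR-ABL-Blk replicate 2 the median of that group against vector was -0.03.

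Complex III, the cytochrome bc1 complex, had the lowest medians of the 5 complexes in BCR-ABL-Blk cells. All 8 genes were below vector there, with a median of -0.22 against 0.00 over all genes, and 7 of 8 were below BCR-ABL, with a median of -0.14. At an unadjusted p under 0.05, 4 of the 8 were lower against vector (4.11% of all genes were) and 3 against BCR-ABL (2.49% of all genes), and none had an adjusted p below 0.277. Between BCR-ABL and vector 4 were above 0 and 4 below, with a median of -0.03. Without normalization the median in BCR-ABL-Blk was -0.05 against vector and 0.02 against BCR-ABL, but all 8 genes stayed below the median of all genes in both. Leaving out BCR-ABL replicate 2 put 5 of 8 below the median of all genes in BCR-ABL-Blk against BCR-ABL, and leaving out vector replicate 1 put 7 of 8 below it against vector.

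The core proteins of complex III differed among themselves. Uqcrc2, a core protein of the matrix side, read 11.44 and 11.43 in vector, 11.57 and 11.46 in BCR-ABL, and 11.38 and 11.13 in BCR-ABL-Blk cells; it was 0.27 below BCR-ABL in the last group (SE 0.10, adjusted p = 0.999). Uqcrfs1, the Rieske iron-sulfur protein, read 11.05 and 10.98, 11.06 and 10.99, and 10.87 and 10.67 in the same order. It was 0.26 below BCR-ABL and 0.25 below vector, without overlap (adjusted p = 0.999 and 0.495), and was named after its values were seen. Uqcrc1, the partner of Uqcrc2, read 10.54 and 10.67, 10.43 and 10.51, and 10.41 and 10.61, and its BCR-ABL-Blk arrays overlapped both other groups.

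Of the small accessory subunits, Uqcr10 and Uqcrq were nearest to the threshold. Uqcr10 read 11.20 and 11.04 in vector, 11.01 and 11.09 in BCR-ABL, and 10.77 and 10.82 in BCR-ABL-Blk cells, with differences of -0.32 from vector (SE 0.09, adjusted p = 0.308) and -0.25 from BCR-ABL (adjusted p = 0.999). Uqcrq read 11.38 and 11.33, 11.21 and 11.22, and 11.09 and 11.08. Its 3 groups did not overlap and stood in that order, with BCR-ABL-Blk 0.27 below vector (SE 0.07, adjusted p = 0.277) and BCR-ABL 0.14 below (adjusted p = 0.667). Uqcr11 was 0.21 below vector in BCR-ABL and 0.32 below in BCR-ABL-Blk cells (adjusted p = 0.695 and 0.445). Uqcrh, the hinge protein that binds cytochrome c1, differed in direction: it was 0.11 above vector in BCR-ABL cells (adjusted p = 0.702) and 0.03 below in BCR-ABL-Blk cells. Uqcrb spanned 11.45 to 11.58 over all 6 arrays.

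**Figure D3:**
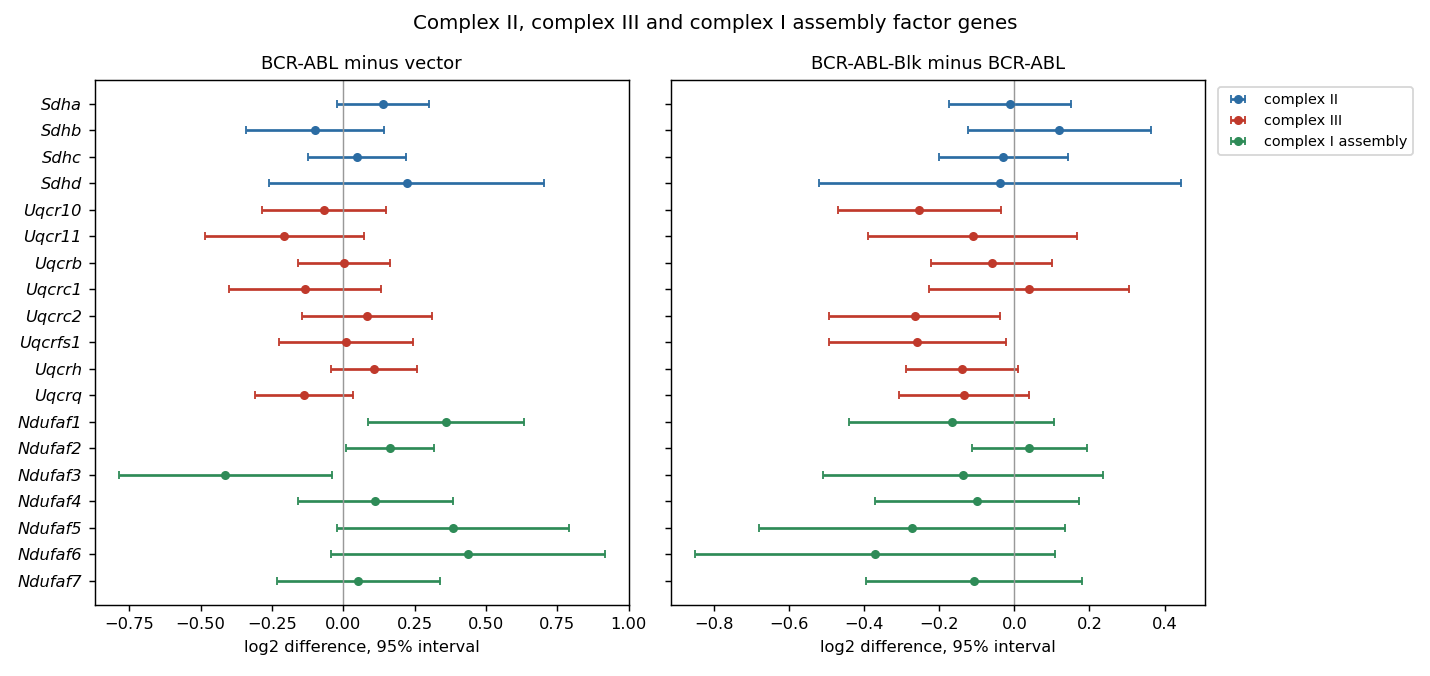
Log2 difference (x axis, points) with its 95% interval from limma (bars) of each gene of complex II, complex III and the complex I assembly factors, for BCR-ABL minus vector (left) and BCR-ABL-Blk minus BCR-ABL (right). On the right 7 of 8 complex III genes lie below 0 and 3 intervals leave out 0, before any adjustment for 19938 genes; without normalization the complex III median on the right is 0.02 and the median of all genes 0.26.

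Complex IV, cytochrome c oxidase, has common subunits and alternative ones that replace them in certain tissues or conditions. The 10 common subunits measured differed little. Their medians were -0.01 for BCR-ABL against vector, -0.06 for BCR-ABL-Blk against BCR-ABL and -0.08 for BCR-ABL-Blk against vector, and every difference lay between -0.29 and 0.07. Without normalization the last medians were 0.08 and 0.06, while relative to all genes they were -0.18 and -0.09. Cox4i1, whose alternative is Cox4i2, ranged from 12.59 to 12.67 over the 6 arrays. Cox6c ranged from 13.08 to 13.18 and was 0.07 above vector in BCR-ABL cells, without overlap (adjusted p = 0.589). Cox5b was 0.07 above vector and 0.05 above BCR-ABL in BCR-ABL-Blk cells (adjusted p = 0.669 and 0.999). Ndufa4, first described with complex I, ranged from 12.41 to 12.59 with all groups overlapping.

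Lower values among the common subunits were seen for Cox8a, Cox6a1 and Cox6b1. Cox8a read 11.34 and 11.47 in vector, 11.28 and 11.33 in BCR-ABL, and 11.11 and 11.12 in BCR-ABL-Blk cells. The difference from vector was -0.29 in the last group (SE 0.08, adjusted p = 0.277) and the groups did not overlap. Cox6a1 read 12.59 and 12.64, 12.44 and 12.52, and 12.47 and 12.42 in the same order, so that both BCR-ABL groups were below vector by 0.13 and 0.17 (adjusted p = 0.459 and 0.292). The lower values in BCR-ABL cells depended on the scaling. With arrays centred on their medians 9 of the 10 common subunits were above vector in BCR-ABL cells and 0 were below. Cox6b1, which faces the intermembrane space, was 0.12 below vector and 0.10 below BCR-ABL in BCR-ABL-Blk cells (adjusted p = 0.38 and 0.999). Cox7a2 was 0.11 below vector there (adjusted p = 0.655) and Cox7b 0.08 below (adjusted p = 0.8). Cox7a2l was 0.07 below (adjusted p = 0.789).

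The alternative subunits gave the widest differences of all 89 genes. Cox6a2, known as the heart and skeletal muscle form of subunit VIa, read 9.01 and 9.26 in vector, 8.04 and 7.97 in BCR-ABL, and 8.11 and 8.21 in BCR-ABL-Blk cells. Both vector arrays were above all 4 others. It was 2.19-fold lower in BCR-ABL cells, a difference of -1.13 (SE 0.15, 95% interval -1.47 to -0.79, adjusted p = 0.0504), and 1.97-fold lower in BCR-ABL-Blk cells, a difference of -0.98 (adjusted p = 0.0696). Between BCR-ABL-Blk and BCR-ABL the difference was 0.15 (adjusted p = 0.999), with an interval from -0.19 to 0.50. Its side of the threshold changed with small choices. For BCR-ABL against vector the adjusted p was 0.0489 with arrays centred on their medians, 0.0495 with the mean of probe sets for each gene, 0.0315 with genes above the median level and 8.35e-05 without normalization. Leaving out vector replicate 1 or 2 gave 0.00907 or 0.0328, but it was 0.325 without BCR-ABL replicate 1 and 0.39 without replicate 2, where the difference remained at -1.17 and -1.10. For BCR-ABL-Blk against vector it ranged from 0.014 to 0.253 over the arrays left out.

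Cox6a2 has also been described in plasmacytoid dendritic cells, so genes of that cell type were read beside it, from a list drawn up after the values of Cox6a2 were seen. Of the 10 measured, 10 were below 0 in BCR-ABL against vector, with a median of -0.36, and 0 passed the test; against vector, 9 of 10 were below 0 in BCR-ABL-Blk cells, with a median of -0.33. Their mean log2 level was 8.17 and 7.67 in vector, 7.46 and 7.49 in BCR-ABL, and 7.48 and 7.62 in BCR-ABL-Blk cells. The defining markers Siglech and Bst2 read 7.47 and 7.37, and 10.57 and 10.63, in vector cells, and were 0.53 and 0.35 lower in BCR-ABL cells (adjusted p = 0.21 and 0.473). The 7 monocyte genes measured were all below vector as well, with medians of -1.05 without Blk and -1.18 with it; Cybb, an oxidase subunit of phagocytes, passed in both (adjusted p = 0.0483 and 0.0383) and Ccr2 in the second (adjusted p = 0.049). The part of these cells in the level of Cox6a2 was not tested.

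Cox4i2, the form of subunit IV known for its use under low oxygen, was on the other side. It read 7.87 and 7.80 in vector, 8.37 and 8.23 in BCR-ABL, and 8.22 and 8.47 in BCR-ABL-Blk cells. All 4 arrays of the BCR-ABL groups were above both vector arrays, by 0.46 (SE 0.14, adjusted p = 0.378) and 0.51 (adjusted p = 0.295), and the groups with and without Blk overlapped. Cox6b2, known as the testis form of subunit VIb, read 10.54 and 10.59, 10.08 and 10.38, and 10.04 and 10.09 in the same order. It was 0.34 below vector in BCR-ABL cells and 0.50 below in BCR-ABL-Blk cells (SE 0.13, adjusted p = 0.516 and 0.248). These directions held without normalization, where the differences from vector were 0.33 and 0.67 for Cox4i2 and -0.37 and -0.32 for Cox6b2.

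Cox7a1, the muscle form of subunit VIIa, showed the least even replicates. It read 7.81 and 7.45 in vector, 7.45 and 8.68 in BCR-ABL, and 7.95 and 8.93 in BCR-ABL-Blk cells. Replicate 2 was well above replicate 1 in both BCR-ABL groups and below it in vector. The difference of 0.81 in BCR-ABL-Blk against vector had an SE of 0.44 (adjusted p = 0.644), and the one of 0.43 in BCR-ABL was within the spread of its own replicates (adjusted p = 0.844). Without normalization Cox7a1 passed in BCR-ABL-Blk against vector (0.96, adjusted p = 0.0102), and without BCR-ABL-Blk replicate 2 the difference was 0.32. The other alternative genes, Cox7b2, Cox8b and Cox8c, ranged from 5.10 to 5.28, from 6.74 to 7.02 and from 7.46 to 7.64 over the 6 arrays, and their groups overlapped except for Cox8b in BCR-ABL against vector (0.15, adjusted p = 0.796). Signal over background was not measured, so a low value of any of these probe sets may be background. Ndufa4l2, the paralog of Ndufa4 known from hypoxia, read 6.51 and 6.42, 6.61 and 6.89, and 6.61 and 6.56, and was 0.28 above vector in BCR-ABL cells (adjusted p = 0.566).

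**Figure D4:**
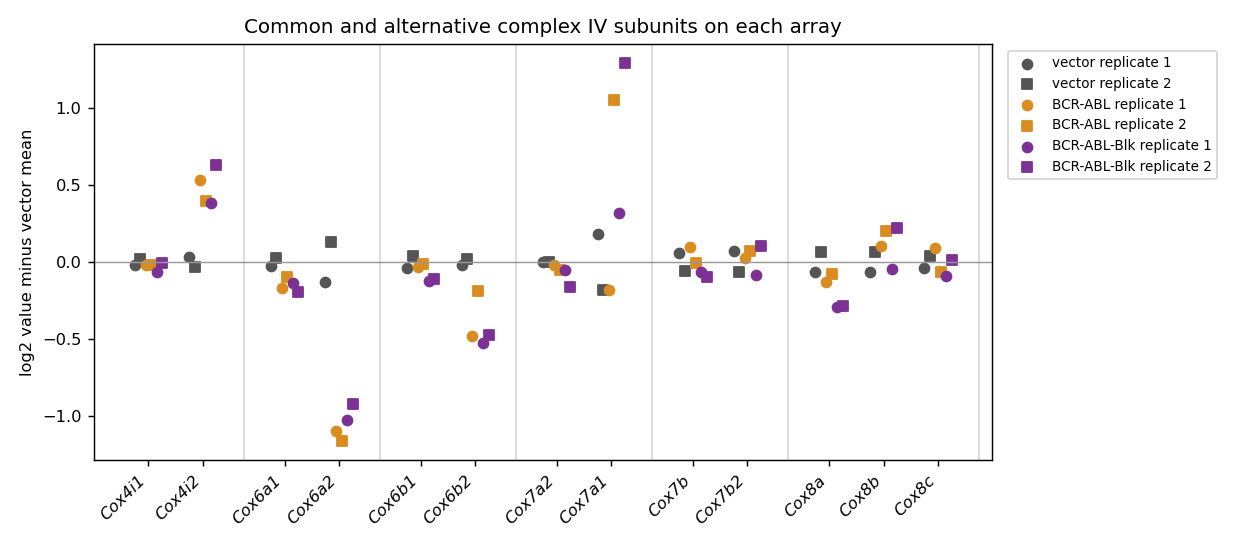
Log2 value of each common subunit of complex IV and its alternatives on each of the 6 arrays, minus the mean of the 2 vector arrays (y axis), with groups by colour and replicates by shape. Common subunits stay within about 0.3 of 0, Cox6a2 and Cox6b2 lie below 0 and Cox4i2 above 0 on all 4 arrays of the BCR-ABL groups, and Cox7a1 splits by replicate; the differences of Cox6a2, Cox6b2 and Cox4i2 from vector keep their sign without normalization.

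The ATP synthase genes varied little. All 17 lay between -0.11 and 0.08 in BCR-ABL against vector, with a median of 0.01, and between -0.17 and 0.03 in BCR-ABL-Blk against BCR-ABL, with a median of -0.05 (0.10 without normalization, where all genes had 0.26). The genes of the catalytic head and central stalk (Atp5a1, Atp5b, Atp5c1, Atp5d and Atp5e) were all above vector in BCR-ABL cells under each of the 3 scalings, but by 0.02 to 0.08 only after quantile normalization, while all 5 differed by a median of 0.15 between the vector replicates. Atp5b, the catalytic beta subunit, read 12.66 and 12.57 in vector, 12.69 and 12.67 in BCR-ABL, and 12.67 and 12.72 in BCR-ABL-Blk cells, without overlap between vector and either group (0.06 and 0.07, adjusted p = 0.768 and 0.679). Atp5a1, the alpha subunit, ranged from 12.20 to 12.36; its vector arrays overlapped both other groups, and its BCR-ABL-Blk arrays lay just below the BCR-ABL arrays.

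The membrane ring is made of 1 protein encoded by 3 genes. Atp5g1, Atp5g2 and Atp5g3 were all below vector in both BCR-ABL groups, although with arrays centred on their medians all 3 were above vector in BCR-ABL, and without normalization 1 was above and 1 below vector in BCR-ABL-Blk. In BCR-ABL the differences were -0.02, -0.08 and -0.03, and in BCR-ABL-Blk -0.19, -0.06 and -0.13, with adjusted p of 0.711, 0.893 and 0.492 in the second. The arrays of BCR-ABL-Blk and vector did not overlap in any of the 3 genes (17.5% of all genes were lower without overlap).

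Atp5mpl, a small protein of the membrane part, was the ATP synthase gene nearest to the threshold. It read 12.61 and 12.54 in vector, 12.49 and 12.48 in BCR-ABL, and 12.37 and 12.27 in BCR-ABL-Blk cells. After quantile normalization the 3 groups stood in that order without overlap. With arrays centred on their medians Atp5mpl was instead 0.03 above vector in BCR-ABL cells, and 0.30 below vector in BCR-ABL-Blk cells. The difference from vector was -0.26 in BCR-ABL-Blk cells (SE 0.05, adjusted p = 0.123) and the one from BCR-ABL -0.17 (adjusted p = 0.999). Atp5k, subunit e, which helps ATP synthase form dimers, was 0.11 below vector in BCR-ABL and 0.15 below in BCR-ABL-Blk cells (adjusted p = 0.604 and 0.361). With arrays centred on their medians all 17 ATP synthase genes, Atp5k included, were above vector in BCR-ABL cells. Atp5md, another small membrane protein, overlapped between all groups.

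The 7 assembly factors of complex I, which help build it and are not part of the finished enzyme, had a median above those of the 5 complexes in BCR-ABL against vector under each of the 3 scalings. The median was 0.16, with 6 of 7 above 0 under each scaling and 5 of 7 without vector replicate 1. At an unadjusted p under 0.05, 2 were higher (5.67% of all genes) and 1 lower (2.96% of all genes), and none had an adjusted p below 0.403. The replicates of a group differed by similar amounts. Replicate 2 lay below replicate 1 by a median of 0.16 in BCR-ABL cells (6 of 7 genes) and 0.10 in vector (5 of 7). In BCR-ABL-Blk against BCR-ABL 6 of 7 were below 0, with a median of -0.14; without normalization 5 of 7 were above 0, with a median of 0.08 against 0.26 over all genes. Ndufaf1 read 10.72 and 10.62 in vector, 11.17 and 10.89 in BCR-ABL, and 10.90 and 10.82 in BCR-ABL-Blk cells, 0.36 above vector in BCR-ABL (SE 0.12, adjusted p = 0.403) and 0.19 above in BCR-ABL-Blk (adjusted p = 0.684). Ndufaf6 read 8.42 and 8.19, 8.84 and 8.64, and 8.64 and 8.10; BCR-ABL was 0.44 above vector (SE 0.20, adjusted p = 0.616) and the BCR-ABL-Blk arrays ran from below vector to just under BCR-ABL.

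Other assembly factors varied in direction. Ndufaf5, which modifies the core subunit Ndufs7, was 0.39 above vector in BCR-ABL (adjusted p = 0.599) and 0.27 below BCR-ABL with Blk (adjusted p = 0.999). Ndufaf2 read 11.56 and 11.46 in vector, 11.66 and 11.68 in BCR-ABL, and 11.71 and 11.71 in BCR-ABL-Blk cells, above vector by 0.16 and 0.20 (SE 0.07, adjusted p = 0.559 and 0.361). Without normalization Ndufaf2 passed in BCR-ABL-Blk against vector (0.36, adjusted p = 0.0377). Ndufaf3 was the exception on the low side: it read 8.97 and 9.28, 8.77 and 8.65, and 8.50 and 8.65, below vector by 0.41 and 0.55 (SE 0.16, adjusted p = 0.521 and 0.31). Ndufaf7 was 0.05 above vector in BCR-ABL and 0.05 below in BCR-ABL-Blk cells.

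Genes of neighbouring mitochondrial functions were read from lists made beside the name rule, and 0 genes of these 6 lists passed in any comparison. Of 27 other assembly factors measured, 19 were above vector in BCR-ABL cells, with a median of 0.09 (15 of 27 without normalization). Vector replicate 2 lay below replicate 1 in 23 of the 27, by a median of 0.15 over the list. The median deviation from each gene's mean over the 6 arrays was 0.06 and -0.10 in vector, and 0.06 and 0.04 in BCR-ABL cells. Cox18, which inserts a complex IV subunit into the membrane, was 0.56 above vector in BCR-ABL cells (adjusted p = 0.256) and the copper chaperone Cox17 0.17 below (adjusted p = 0.427). Of 16 regulators of mitochondrial biogenesis 13 were above vector without Blk and 12 with it, with medians of 0.12 and 0.09, and 11 and 15 were without normalization. Vector replicate 2 lay below replicate 1 in 13 of the 16 as well, by a median of 0.12 over the list. Among the regulators Tfam, the packaging factor of mitochondrial DNA, read 9.47 and 9.24 in vector, 9.96 and 9.73 in BCR-ABL, and 9.72 and 9.57 in BCR-ABL-Blk cells (adjusted p = 0.379 and 0.628). Twnk, the helicase of mitochondrial DNA, was 0.54 and 0.76 above vector (adjusted p = 0.539 and 0.293).

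Of 23 genes of pyruvate oxidation and the citric acid cycle, 16 were above vector in BCR-ABL cells, with a median of 0.06 (15 without normalization). Pdk3, a kinase that switches off pyruvate dehydrogenase, came nearest to the threshold of the 6 lists. It read 10.28 and 10.17 in vector, 10.80 and 10.77 in BCR-ABL, and 10.93 and 10.94 in BCR-ABL-Blk cells, 0.56 and 0.71 above vector (adjusted p = 0.0923 and 0.0546). The 8 enzymes measured that remove mitochondrial superoxide and peroxide had medians of -0.05 against vector without Blk and -0.02 with it, and the 11 electron carriers and subunits with other names -0.03 and 0.04; in BCR-ABL both changed sign with arrays centred on their medians (0.03 and 0.085). Of the subunits encoded by mitochondrial DNA only ND3 and COX2 had a value. ND3 ranged from 11.91 to 12.10 and COX2 from 12.33 to 12.53 over the 6 arrays, and neither differed from vector by more than 0.10.

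The other genes named from these lists varied in direction. Suclg2, a subunit of succinyl-CoA ligase, was 0.42 and 0.47 above vector in the groups without and with Blk (adjusted p = 0.342 and 0.248), and Etfa, which feeds electrons from fat oxidation to ubiquinone, 0.15 and 0.17 above (adjusted p = 0.563 and 0.425). Sod2, the superoxide dismutase of the matrix, stood 0.27 above vector in BCR-ABL and Gpx4 0.11 above (adjusted p = 0.7 and 0.73), while Atpif1, an inhibitor of ATP synthase, was at -0.05 (adjusted p = 0.705). With Blk, Atpaf2 and Ppargc1b, a coactivator of biogenesis, stood 0.38 and 0.40 above vector (adjusted p = 0.37 and 0.378); Coq7, Txn2 and Gsr had differences of -0.37, -0.32 and -0.55 (adjusted p = 0.594, 0.6 and 0.549). Against BCR-ABL, the group with Blk had differences of 0.44 for Pdk1, -0.30 for Coq5, -0.31 for Cox11, -0.31 for Tfb2m and -0.29 for Fh1, each with an adjusted p of 0.999.

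The sort took cells that lacked lineage markers and carried c-Kit and Sca-1, a gate meant to leave out mature B, granulocytic and erythroid cells. Several lists of markers of other cell types nevertheless differed between groups by more than any complex did. The 9 B cell genes measured had a median of -2.14 in BCR-ABL against vector with 9 of 9 below 0, and their mean level was 10.6 and 8.96 on the vector arrays and between 7.49 and 8.22 on the other 4. The 10 neutrophil granule genes were all below BCR-ABL in BCR-ABL-Blk cells, with a median of -0.42, and 0 passed. Of 7 erythroid genes, 7 were below BCR-ABL there, with a median of -0.30, and the 9 mast cell, basophil and eosinophil genes were all below it, with a median of -0.45. The mean level of this last list was 9.52 and 9.61 in BCR-ABL, and 9.61 and 8.56 in BCR-ABL-Blk cells. Its low values thus came from BCR-ABL-Blk replicate 2, which lay below replicate 1 by a median of 1.07, with 8 of 9 genes lower. Against vector the last list had medians of 0.91 in BCR-ABL (7 of 9 above 0) and 0.23 in BCR-ABL-Blk (6 of 9), and Gzmb passed in both (3.25 and 2.5, adjusted p = 0.0187 and 0.049). Without normalization 7 of 10, 4 of 7 and 7 of 9 genes of the 3 lists were below 0 in BCR-ABL-Blk against BCR-ABL, with medians of -0.25, -0.13 and -0.22. The 8 genes of stem cells had medians of 0.46 and 0.54 in BCR-ABL and BCR-ABL-Blk against vector. In each comparison 6 of them were above 0 and 2 below. Meis1 passed in the second (1.08, adjusted p = 0.049), while Kit was at -0.39 and -0.28 (adjusted p = 0.533 and 0.638). The 5 megakaryocyte genes had medians of 0.41 and 0.48. The part of these cells in the small differences of the respiratory chain genes was not tested.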

How the data were processed

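Total RNA of 6 samples was hybridised to whole-transcript arrays, 1 array a sample. The authors deposited log2 values for 35557 probe sets, made with Affymetrix Expression Console 1.1 and RMA per the submitters' processing notes. The genome build is not given in the sources used here, nor are the options of RMA. RMA corrects background, normalizes and summarises probes. The deposited arrays did not share one distribution, so they were quantile normalized, which can remove shifts common to many genes. Of the probe sets, 21789 had 1 gene symbol in the platform annotation, 1621 several and the rest none, which gave 19938 genes. All 89 respiratory chain symbols matched RefSeq by Entrez ID. The name rule was read as taking Sdha to Sdhd only, so 4 Sdhaf symbols were left out.

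Group differences came from limma 3.58.1 in R 4.3.3, with lmFit and eBayes (intensity trend on), from 1 model of the 3 group means with no block. Residual degrees of freedom were 3, and the prior added 4.40. Tests were two-sided; p-values were adjusted by Benjamini-Hochberg across the 19938 genes and called below 0.05. The fit was run on simulated data without scaling differences between arrays. That run cannot speak to small differences that depend on the scaling. No set test was used. The number of arrays limits the precision.

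The members, lists and named genes were chosen with earlier results of these data known. Named were all alternative subunits, the Sdh genes, the 2 members with the highest and the 2 with the lowest moderated statistic of complexes I, III, IV, V and the assembly factors in each comparison, and the 2 with the largest absolute statistic of each other mitochondrial list. Chosen after the members' values were seen were the placing of genes in complexes and roles, the plasmacytoid dendritic cell list, the 8 promoter motifs (NRF1, ETS, YY1, CCAAT, E-box, ERR, TATA and GC boxes, searched on both strands), the printed windows and the counts of each list by scaling. Uqcrfs1, Blk, Kit, Meis1 and the cell type genes were named outside this rule. The E-box CACGTG was found in 8.22% of the 73 promoters (9.50% of genes on the arrays), TCAAGGTCA in 2.74% (0.346%), TATAAA in 11.0% (13.6%) and GGGCGG in 45.2% (52.9%). Promoters came from RefSeq, build GRCm38.p6. Alternatives were other scalings, a replicate block, array weights, no trend, a level filter, the mean of probe sets, subunits alone and each array left out. Tables were summarised with pandas 2.3.3 and numpy 2.4.6 under Python 3.11.15, and drawn with matplotlib 3.10.9.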

Additional observations from a re-analysis of the deposited data

How the results depend on the processing

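The count of respiratory chain genes called, 0 in each comparison, turned to 1 in BCR-ABL against vector with arrays centred on their medians, with genes above the median level, with the mean of probe sets and without normalization (Cox6a2 each time). In BCR-ABL-Blk against vector it turned to 1 with genes above the median level (Cox6a2) and to 3 without normalization (Cox6a2, Cox7a1, Ndufaf2). Leaving out 1 array gave 0 to 2 called in each comparison with vector (2 without vector replicate 1, Cox6a2 and Ndufb7) and 0 in BCR-ABL-Blk against BCR-ABL. Over all genes, the 29 calls of BCR-ABL against vector became 53 with genes above the median level, 15 without the intensity trend, 401 without normalization and 1 to 507 with an array left out; the 28 of BCR-ABL-Blk against vector became 14 with array weights, 71, 4, 731 and 4 to 560, and the 0 of BCR-ABL-Blk against BCR-ABL 79 without normalization and 0 to 2. With arrays centred on their medians, the medians of the 89 genes and of complexes I to V in BCR-ABL against vector were 0.14, 0.10, 0.2375, 0.0975, 0.125 and 0.15; in BCR-ABL-Blk against BCR-ABL those of the 89 and of complexes I, III, IV and V were -0.205, -0.22, -0.285, -0.20 and -0.205, and complex IV was -0.0875 in BCR-ABL-Blk against vector. Without normalization the 6 medians were 0.095, 0.08, 0.18, 0.015, 0.10 and 0.095 in BCR-ABL-Blk against BCR-ABL and 0.075, 0.07, 0.2275, -0.0525, 0.0675 and 0.075 against vector, and complex IV was -0.02 in BCR-ABL against vector. Centring only shifts whole arrays, so relative to all genes it gave the same medians as no normalization; why quantile normalization differed from both was not tested. With an array left out the 6 medians ran, in BCR-ABL against vector, from -0.0263 to 0.0458, -0.0585 to 0.0283, 0.0031 to 0.1631, -0.0708 to 0.0146, -0.0094 to 0.0408 and -0.0508 to 0.0458. In BCR-ABL-Blk against BCR-ABL they ran from -0.0783 to -0.0542, -0.0896 to -0.0504, -0.0481 to 0.1129, -0.1835 to -0.1242, -0.0883 to -0.0092 and -0.0638 to -0.0467, and in BCR-ABL-Blk against vector from -0.0975 to -0.0358, -0.1488 to -0.061, -0.0308 to 0.1567, -0.2856 to -0.1708, -0.0681 to -0.0387 and -0.13 to 0.0129. The cause of the changes in calls was not tested. With an array left out 1 group holds a lone array that is assumed to vary like the others. Deviations of same-numbered arrays from their group means correlated at -0.06, 0.08 and 0.03 over the 3 pairs of groups. With 2 arrays a group these values cannot show whether the replicate numbers pair the samples. With the replicate number as a block 0 of the 89 genes were called in each comparison, and the adjusted p of Cox6a2 against vector was 0.063 without and 0.0796 with Blk. Of the 17 genes with several probe sets, 8, 4 and 2 had probe sets that differed in sign in the 3 comparisons. Signal over background was not measured and limits the reading of low values.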
